A study of Homo sapiens with 8 samples.

Results

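LCK, VSNL1, CNMD, USP44 and VRTN are 5 genes read from undifferentiated H1 cells, an established human embryonic stem cell line, and from 3 kinds of culture grown from it. They are 5 of the 20195 named genes in the combined transcript assembly of the study, and 14 of its 85024 transcripts that carry a gene name. The genes were taken by name from the combined count table. They had been chosen by their counts in hPSC and in the layers, so every difference in level from the undifferentiated cells is a description of these genes without a test. How their reads divide over transcripts was tested in 1 of the same comparisons after the shares had been seen, and that p-value is no independent support. Polyadenylated RNA was read on a PacBio Sequel II, a long-read instrument for which 1 read follows 1 transcript, with 2 repeats in each of 4 groups. Undifferentiated cells (hPSC) were kept on Matrigel in mTeSR1. Endoderm cultures received WNT3A and 100 ng/ml Activin A with 0.5% FBS. Mesoderm cultures received VEGF and BMP4 at 100 ng/ml each and bFGF at 10 ng/ml with 0.5% FBS, and Activin A for the opening 24 hours. Ectoderm cultures received the inhibitors A83-01, PNU-74654 and Dorsomorphin at 2 µM each with 15% KOSR. All layers were collected at day 5, and every group is the same H1 line without a transgene or sort. Nothing in the labels ties the repeats to separate cultures, so p-values measure the spread between these libraries, which may be technical.

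LCK is a SRC family tyrosine kinase held at the inner face of the cell membrane, best known for starting signalling from the T cell receptor, and it has a distal and a proximal promoter. VSNL1 encodes visinin-like protein, a calcium sensor of neurons, and CNMD encodes chondromodulin, a cartilage glycoprotein with a BRICHOS domain that restrains vessel growth. USP44 is a protease that takes ubiquitin off histone H2B and holds back the anaphase-promoting complex at the spindle checkpoint, and VRTN encodes vertnin, a nuclear protein tied to the number of vertebrae in pigs.

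The transcript starts of LCK and VSNL1 lie beside promoters that RefSeq lists on GRCh38.p14, and these are shown because the reads separate the promoters of each gene. Of the 5 genes, 4 matched the RefSeq promoter table and USP44 did not. Each sequence is on the plus strand, 5′ to 3′, and leaves out bases that lie in an exon. The distal promoter of LCK at chr1:32251015-32251238 had no assembled transcript starting beside it, and the proximal promoter at chr1:32273871-32274053 lies just before the starts of the LCK transcripts. The upstream promoter of VSNL1 at chr2:17539722-17539966 precedes its less read start, and the promoter at chr2:17540446-17540652 precedes its main start. Capitals mark a match to TATAAA or to GGGCGG, here both on the minus strand.
LCK distal: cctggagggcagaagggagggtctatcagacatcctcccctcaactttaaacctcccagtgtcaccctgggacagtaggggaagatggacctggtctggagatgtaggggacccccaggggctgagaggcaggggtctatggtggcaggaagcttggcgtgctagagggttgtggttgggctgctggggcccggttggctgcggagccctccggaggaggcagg
LCK proximal: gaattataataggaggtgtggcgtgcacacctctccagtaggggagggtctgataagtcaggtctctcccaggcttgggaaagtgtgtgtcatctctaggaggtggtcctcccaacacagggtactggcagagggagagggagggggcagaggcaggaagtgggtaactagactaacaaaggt
VSNL1 upstream: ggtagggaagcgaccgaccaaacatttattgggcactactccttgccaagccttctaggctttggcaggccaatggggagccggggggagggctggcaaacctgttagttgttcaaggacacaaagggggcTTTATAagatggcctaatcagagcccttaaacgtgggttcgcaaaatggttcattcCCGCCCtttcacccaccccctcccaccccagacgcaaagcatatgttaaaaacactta
VSNL1 main: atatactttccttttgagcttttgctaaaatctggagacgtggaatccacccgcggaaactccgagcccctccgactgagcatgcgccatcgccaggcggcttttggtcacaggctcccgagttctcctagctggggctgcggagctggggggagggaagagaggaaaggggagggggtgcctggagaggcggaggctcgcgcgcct
The TATA box letters TATAAA, the GC box letters GGGCGG and the octamer ATGCAAAT were searched on both strands, and none of the 3 motifs contains another. In the table's 35116 promoters, which run from 250 bases before to 50 after a start, TATAAA was found in 11.5%, GGGCGG in 45.0% and ATGCAAAT in 1.77%. Among the promoters of the 4 matched genes only the upstream promoter of VSNL1 held TATAAA or GGGCGG, and none held ATGCAAAT in these letters.

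A pair of coding sequences is shown for CNMD, because its 2 transcript forms differ in the protein-coding sequence. Both show the 15 bases before the last splice junction and 15 shared bases after it, read 5′ to 3′ on the coding (minus) strand of chromosome 13. Capitals mark the 3 bases that one form has between them and the other lacks.
CNMD form with the 3 bases: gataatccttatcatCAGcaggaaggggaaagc
CNMD form without them: gataatccttatcatcaggaaggggaaagc
The form with the 3 bases has 334 codons and the other has 333.

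The libraries held 503840 to 1180888 reads, with the 2 highest totals in ectoderm, and 3 reads, taken as the most that a count of 0 allows, came to 2.54 to 5.95 CPM (counts scaled to the library total). These limits and the intervals below cover counting error only. The mean length of the assembled transcripts read was 3114.5 to 3298.2 bases in hPSC and 4405.7 to 4650.3 in ectoderm. Counts of the 2 hPSC libraries differed more than those of other repeats, with a chi-square per gene of 7.63 against 1.59 to 2.18. Of the layer markers, PAX6 had 170 and 79 reads in ectoderm, CER1 974 and 1181 in endoderm, and HAND1 263 and 274 in mesoderm. Each was highest in the layer of its label and had no read in hPSC. Endoderm also had 6 and 5 reads of PAX6, 20 and 6 of HAND1 and 23 and 19 of TBX3, a further mesoderm marker. PAX6 had no read in mesoderm, HAND1 none in ectoderm and CER1 none in either. The summed level of 6 hPSC markers was 3459 to 3657 CPM in hPSC, 1271 to 1708 in ectoderm, 1696 to 1990 in endoderm and 274 to 292 in mesoderm, and none of the 6 was at 0 in every library. The markers differed between layers: NANOG had 79 and 129 reads in hPSC, 3 and 0 in ectoderm and 92 and 65 in endoderm, while SOX2 had 71 and 5 in hPSC, 180 and 129 in ectoderm and none in endoderm. LIN28A had 421 and 344 in hPSC and 1038 and 1238 in ectoderm, and POU5F1 had 372 and 352 in hPSC, 5 and 16 in ectoderm and 61 and 69 in endoderm. The ectoderm libraries held more reads in all, and neither SOX2 nor LIN28A was called in ectoderm against hPSC (edgeR adjusted p = 0.365 and 0.618). In bulk RNA, fewer cells with a transcript and less of it per cell cannot be told apart.

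The 5 genes did not share 1 pattern. Both hPSC libraries lay above all 6 layer libraries for 2 of the 5 genes, LCK and CNMD, a rule met by 9.27% of the 10847 genes tested. As counts in hPSC had helped to choose the 5 genes, this is a description. The rule does not define stem cell genes, as the hPSC markers SOX2 and LIN28A had a higher mean CPM in ectoderm than in hPSC. VSNL1 and USP44 were read in hPSC and in ectoderm to similar levels and nearly absent from endoderm and mesoderm. VRTN was highest in endoderm. Mesoderm was the group in which all 5 were low, with at most 4 reads of any of them in a library.

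**Figure D1:**
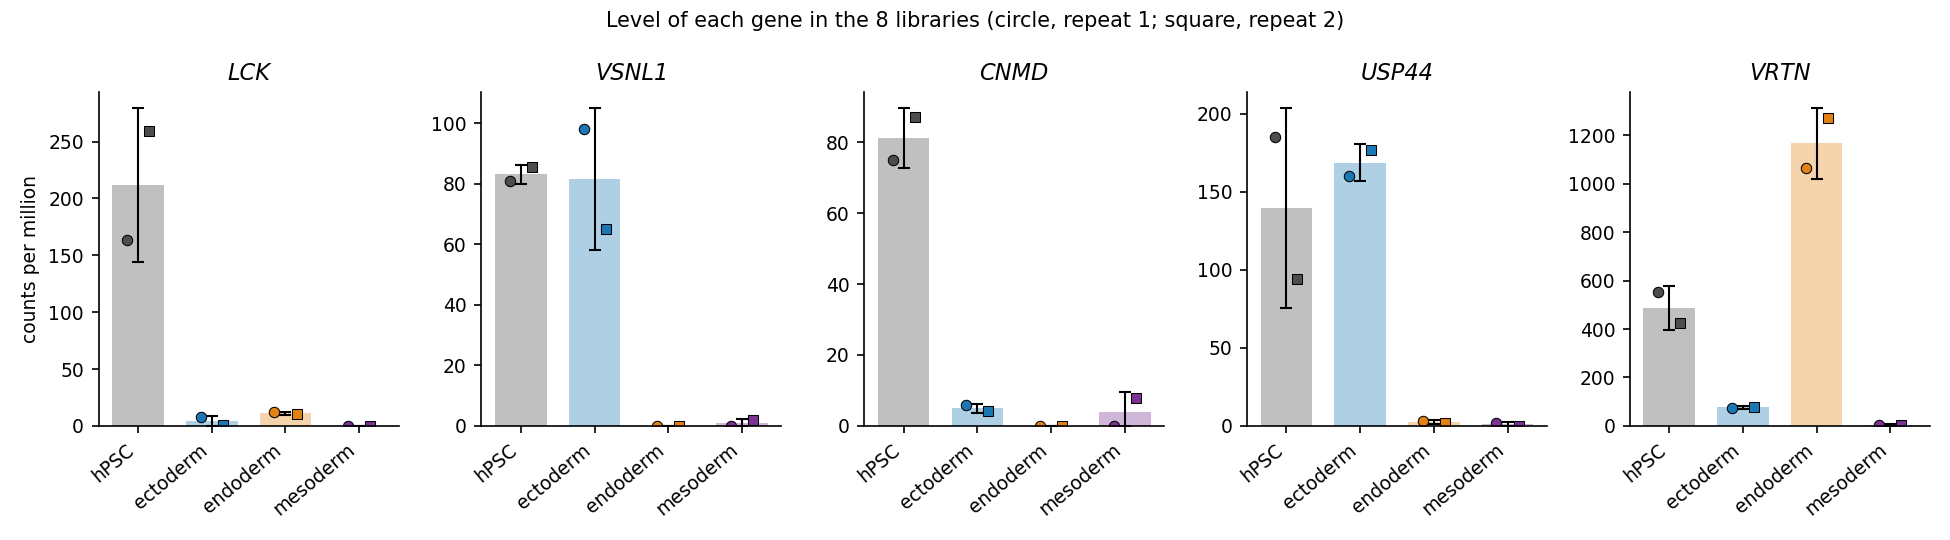
CPM of LCK, VSNL1, CNMD, USP44 and VRTN (vertical axes, each from 0) in hPSC, ectoderm, endoderm and mesoderm; bars are means of 2 libraries, whiskers the SD (cut at 0), circles repeat 1 and squares repeat 2. LCK and CNMD stand above the layers in both hPSC libraries, VSNL1 and USP44 are level in hPSC and ectoderm, and VRTN peaks in endoderm at 1167 CPM.

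LCK (ENSG00000182866.18, chromosome 1) had 85 and 146 hPSC reads, with 9 and 1 in the ectoderm libraries, 7 and 6 in those of endoderm and 0 in either of mesoderm. Both hPSC libraries were far above all others, and the 2 hPSC libraries themselves were apart. In CPM this was 212 ± 67.9 in hPSC, 11.1 ± 1.22 in endoderm and 4.33 ± 4.66 in ectoderm (SD, n = 2 each). The hPSC level was 19.1-fold that of endoderm, 48.9-fold that of ectoderm, and at least 35.6-fold higher than mesoderm, where the bound takes 3 counts per library. The ectoderm value rests on few reads: the fitted log2 fold change against hPSC was -5.92, and it was -7.68 without ectoderm repeat 1, -5.04 without ectoderm repeat 2 and -5.28 without hPSC repeat 2. The order was therefore hPSC, endoderm, ectoderm and mesoderm, and the endoderm and ectoderm libraries did not overlap in CPM. As ectoderm repeat 1 had more reads of LCK than either endoderm library, that order rests on its larger total.

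Of 10 T cell markers, CD3D, CD3E, CD3G, CD2 and PTPRC had no listed read in any library. The summed level of the 10 was 7.12 to 9.63 CPM in hPSC, 3.39 to 6.20 in ectoderm, 42.7 to 59.8 in endoderm and 3.97 to 5.65 in mesoderm. The endoderm sum came mainly from ZAP70, the kinase that acts after LCK in T cells, with 33 and 22 reads there and none in hPSC.

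Nearly all LCK reads in hPSC came from the proximal start region, at chr1:32274054-32274113, with 85 of 85 reads in repeat 1 and 145 of 146 in repeat 2. The 95% Wilson intervals of these shares were 95.7% to 100% and 96.2% to 99.9%. The closest assembled start lay 22789 bases from the distal RefSeq start whose promoter is printed above. The main form (73 and 113 hPSC reads) starts at position 32274113, has 13 exons and holds the 509-codon coding sequence. A form that starts at 32274054 and keeps the intron after its initial exon had 7 and 21 hPSC reads, and it also took 6 of the 13 endoderm reads. In the assembly made from hPSC alone, that form starts at 32274113 and had 5 and 10 reads. A form with 4 and 9 hPSC reads has a longer second exon, and one with 1 and 2 reads has 539 codons. The fifth form, which starts at 32275569 and lacks the full coding sequence, had 1 read in hPSC and 1 in endoderm.

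VSNL1 (ENSG00000163032.12, chromosome 2) had 42 and 48 hPSC reads, with 116 and 63 in the ectoderm libraries, none in endoderm and 0 and 1 in mesoderm. The hPSC libraries, at 80.9 and 85.4 CPM, lay between the 2 ectoderm libraries at 98.2 and 65.1. The means were 83.1 ± 3.20 CPM in hPSC and 81.7 ± 23.4 in ectoderm (SD, n = 2 each), a difference smaller than the spread of the ectoderm libraries. With library sizes scaled by TMM the means were 88.7 and 64.4 CPM and the libraries still overlapped. hPSC was at least 16.2-fold higher than endoderm, and 86.1 times mesoderm, with a 95% interval of 15.1 to 3439.6 from 1 mesoderm read.

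Most VSNL1 reads in both groups started at position 17540696, and an upstream start at 17539970 gave the rest. The upstream start had 3 of 42 and 8 of 48 reads in hPSC and 10 of 116 and 7 of 63 in ectoderm. These were 7.14% and 16.7% against 8.62% and 11.1%, so the 2 groups overlapped in the combined assembly. The shares depended on the assembly: that of hPSC alone kept 3 and 8 upstream reads. That of ectoderm alone had no upstream form, and its 116 and 63 reads all went to the form starting at 17540696. Both forms hold the same coding sequence of 191 codons, and they differ in their initial exon and in where they end.

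CNMD (ENSG00000136110.13, chromosome 13) had 39 and 49 reads in hPSC, 7 and 4 in ectoderm, none in endoderm and 0 and 4 in mesoderm. As with LCK, both hPSC libraries stood above every layer library, but here the 2 were close together. The levels were 81.1 ± 8.54 CPM in hPSC, 5.03 ± 1.27 in ectoderm and 3.97 ± 5.61 in mesoderm (SD, n = 2 each). hPSC was 16.1-fold above ectoderm, 20.4-fold above mesoderm and at least 15.8-fold above endoderm. Ectoderm and mesoderm libraries overlapped, and the mesoderm mean came from 1 library.

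The summed level of 8 cartilage markers was 62.3 to 96.3 CPM in hPSC and higher in every layer library, at 417 in both of ectoderm, 138 to 186 in endoderm and 416 to 472 in mesoderm. MATN1 had no listed read, and ACAN had 1 read in hPSC. COL2A1, the main cartilage collagen, had 13 and 12 reads in hPSC and 141 and 109 in ectoderm. Another cartilage collagen gene, COL9A1, had 16 reads in each hPSC library and 141 and 136 in ectoderm, but 3 and 2 in endoderm (edgeR adjusted p = 0.00467) and 4 and 6 in mesoderm (0.00826), so it was lower there than in hPSC. Against hPSC, 5 of the 6 markers tested rose in ectoderm and none fell (23.8% and 24.8% of all genes did). In endoderm 3 rose and 1 fell (13.4% and 13.7% of all genes), and in mesoderm likewise 3 and 1 (17.0% and 18.2%).

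The 2 CNMD forms were both read in hPSC. The form with the extra CAG starts at position 52739820 and had 26 of 39 and 36 of 49 reads, or 66.7% and 73.5%. The other starts further upstream at 52739984 and had 13 reads in each hPSC library. The split depended on the assembly: with that of hPSC alone, the form with the extra bases had 34 and 46 reads and the other, starting at 52739812, had 5 and 3. In the test of transcript choice between ectoderm and hPSC described below, CNMD was not called (edgeR diffSpliceDGE, Benjamini-Hochberg adjusted p = 0.897), with 11 ectoderm reads in all.

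USP44 (ENSG00000136014.12, chromosome 12) had 96 and 53 hPSC reads, with 189 and 171 in the ectoderm libraries, 2 and 1 in those of endoderm and 1 and 0 in those of mesoderm. The ectoderm libraries, at 160 and 177 CPM, lay between the 2 hPSC libraries at 185 and 94.3, so these groups overlapped fully. The means were 140 ± 64.0 CPM in hPSC and 168 ± 11.8 in ectoderm (SD, n = 2 each), and with TMM scaling the order of these means turned to 143 and 133. hPSC was 53.8 times endoderm, with a 95% interval of 18.1 to 264, and 143 times mesoderm, with an interval of 25.2 to 5670.0, on 3 and 1 reads. The summed level of 8 neuron markers, a further class of gene that ectoderm cultures could read, was 293 to 367 CPM in hPSC, 341 to 358 in ectoderm, 1655 to 1726 in endoderm and 62.1 to 69.5 in mesoderm. Single markers went different ways. TUBB3 had 122 and 188 reads in hPSC, 28 and 24 in ectoderm and 947 and 989 in endoderm, where it made up most of the sum. MAP2 had 1 and 2 reads in hPSC and 213 and 172 in ectoderm (edgeR adjusted p = 2.27e-06), and SYT1 had 7 and 8 against 161 and 118 (4.29e-05), with at most 7 reads of either in any endoderm or mesoderm library. RBFOX3 had 15 and 6 in hPSC and 14 and 11 in ectoderm. In ectoderm SYN1 had 1 and 5 reads, STMN2 4 and 0 (18 and 15 in endoderm), and DCX and SNAP25 1 and 0 each. Of the 4 neuron markers tested, 2 rose and 1 fell in ectoderm (23.8% and 24.8% of all genes did). In endoderm 2 rose and none fell (13.4% and 13.7%), and in mesoderm none rose and 1 fell (17.0% and 18.2%). The part of cells with neuron markers in the ectoderm levels of VSNL1 and USP44 was not tested.

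Although the level of USP44 was similar in hPSC and ectoderm, its start site was not. The gene was read from an upstream start at position 95551476 and from a downstream start 2644 bases further along the gene, on the minus strand. In hPSC the upstream start had 42 of 96 and 23 of 53 reads, and in ectoderm 31 of 189 and 27 of 171. The shares were 43.8% (95% Wilson interval 34.3% to 53.7%) and 43.4% (31.0% to 56.7%) in hPSC, and 16.4% (11.8% to 22.3%) and 15.8% (11.1% to 22.0%) in ectoderm. The repeats of each group were close, and no interval of one group met an interval of the other. The mean share was 43.6% ± 0.25 in hPSC and 16.1% ± 0.43 in ectoderm (SD, n = 2 each).

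**Figure D2:**
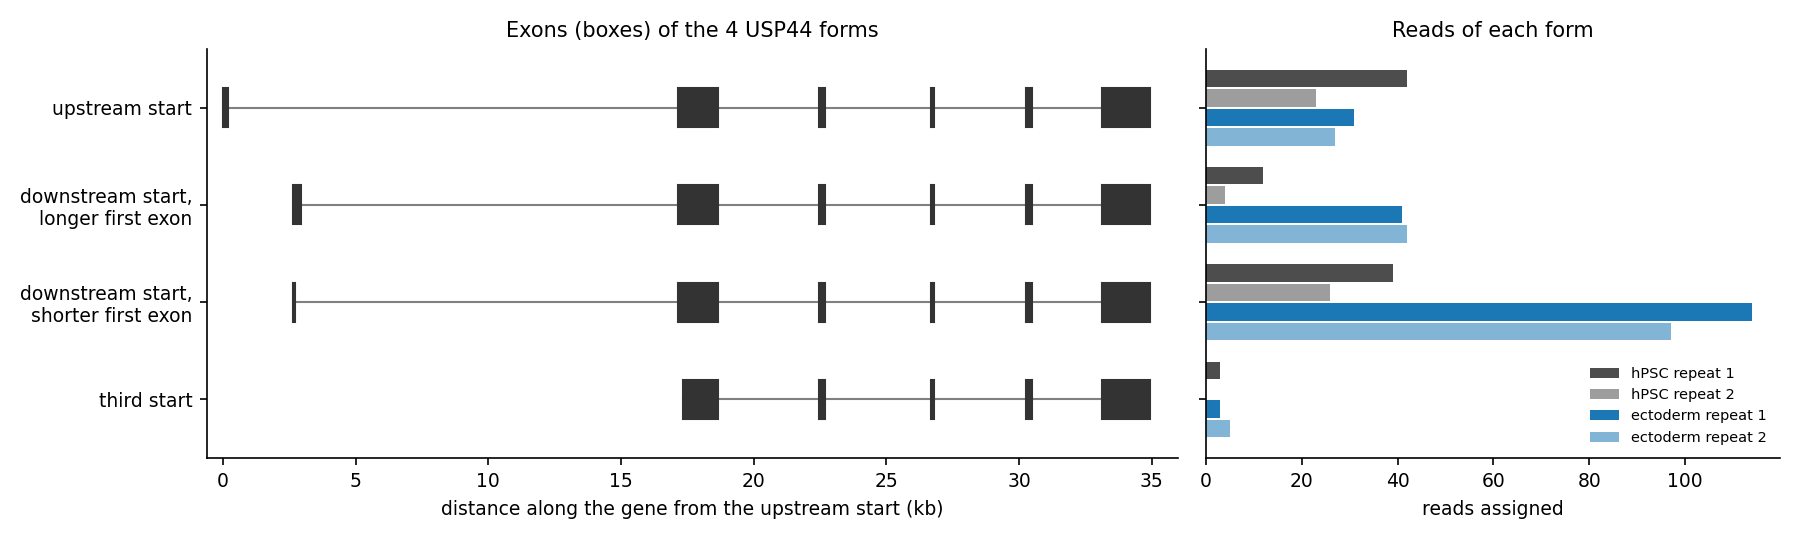
Left, exons (boxes) and introns (lines) of the 4 USP44 forms against the distance from the upstream start in kilobases; right, reads of each form in the 2 hPSC and 2 ectoderm libraries. The upstream form has 42 and 23 hPSC reads and 31 and 27 in ectoderm, while the downstream form with the shorter first exon has 39 and 26 against 114 and 97.

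Transcript choice, meaning how the reads of a gene divide over its transcripts, was tested for ectoderm against hPSC after these shares had been seen. USP44 was called with 3 transcripts tested (edgeR diffSpliceDGE, Benjamini-Hochberg adjusted p = 0.0219), in a comparison that called 5.63% of 2629 genes. Relative to the gene's other transcripts, the upstream form was lower in ectoderm by a log2 value of -1.43, and the downstream forms were higher by 1.10 and 0.42. Direction was the same in all 4 libraries, but the call was lost without ectoderm repeat 1 (adjusted p = 0.346) or repeat 2 (0.405). Without either hPSC library it was kept, at 0.0120 and 0.00963.

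The assembly of each group on its own gave a higher share to the upstream start and the same gap. There it was 51.0% and 52.8% in hPSC and 22.2% and 26.7% in ectoderm. The 2 downstream forms, whose initial exons have 49 and 307 bases, could not be told apart with the same safety: in hPSC they had 39 and 26 against 12 and 4 reads in the combined assembly, but 6 and 2 against 41 and 23 in that of hPSC alone. All 3 of these forms hold the same 712 codons. The fourth form starts within the second exon at 95534138, lacks the full coding sequence and had 3 and 0 reads in hPSC and 3 and 5 in ectoderm. The mean length of transcripts read was greater in ectoderm, and its part in these shares was not tested.

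**Figure D3:**
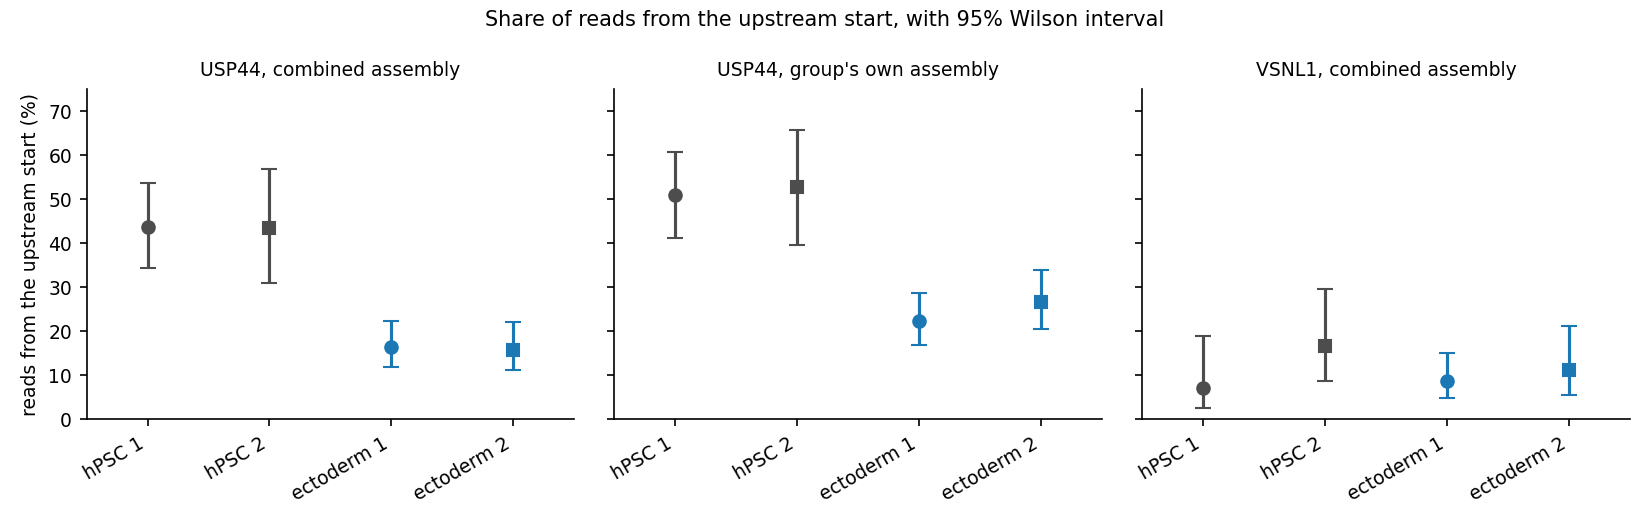
Share of a gene's reads from its upstream start (percent, with 95% Wilson intervals) in the hPSC and ectoderm libraries, for USP44 in the combined assembly and in each group's own assembly, and for VSNL1. For USP44 the hPSC libraries (43.4% and 43.8% in the combined assembly) lie above those of ectoderm (15.8% and 16.4%). For VSNL1, shown in the combined assembly only, the intervals overlap.

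VRTN (ENSG00000133980.5, chromosome 14) had 287 and 238 hPSC reads, with 86 and 77 in the ectoderm libraries, 623 and 745 in those of endoderm and 3 and 1 in those of mesoderm. No library of one group reached the range of another. The levels were 1167 ± 146 CPM in endoderm, 488 ± 91.4 in hPSC, 76.2 ± 4.80 in ectoderm and 3.82 ± 2.59 in mesoderm (SD, n = 2 each). Endoderm was 2.39-fold above hPSC, hPSC 6.40-fold above ectoderm, and ectoderm 20.0-fold above mesoderm. All reads of the gene were assigned to 1 spliced form of 2 exons and 3418 bases, at chr14:74348457-74360004 on the plus strand, with a coding sequence of 702 codons.

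Differences between the layers were tested in the same fit across all 10847 genes (edgeR quasi-likelihood, Benjamini-Hochberg adjustment). Counts in the layers as well as in hPSC had been used to choose the 5 genes, so their p-values here are no independent support. Between endoderm and ectoderm, 4 of the 5 genes were called, against 63.1% of all genes, 2 of them higher in endoderm (29.9% of all genes) and 2 lower (33.1%). VRTN was higher in endoderm by a log2 fold change of 4.70 ± 0.34 (SE, edgeR adjusted p = 9.76e-08), or 15.3-fold in CPM. The CPM ratio is the smaller because it is scaled to library totals, which shift log2 differences between endoderm and ectoderm by -0.76 relative to TMM. USP44 was lower in endoderm, by -5.21 ± 0.55 (edgeR adjusted p = 2.10e-06), with ectoderm at 65.5 times endoderm on 3 endoderm reads (95% interval 22.2 to 319). VSNL1 was at least 15.9-fold lower in endoderm (edgeR adjusted p = 1.16e-05), where it had no read.

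LCK was higher in endoderm than in ectoderm by a log2 fold change of 1.98 ± 0.77 (SE, edgeR adjusted p = 0.0348), on 13 and 10 reads. This call was lost without ectoderm repeat 2 (adjusted p = 0.174), endoderm repeat 1 (0.155) or endoderm repeat 2 (0.116), and when a trend with transcript length was removed (0.156). Without ectoderm repeat 1 the log2 fold change was 3.83. CNMD did not pass (edgeR adjusted p = 0.0721), with 11 reads in ectoderm and none in endoderm. A share of 4 of 5 is close to that of all genes, so the count itself says little about these genes.

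Between mesoderm and ectoderm, 3 of the 5 were called, against 35.5% of all genes, and all 3 were lower in mesoderm, as 18.1% of all genes were and 17.3% were higher. They were VRTN (log2 fold change -4.04 ± 0.53, SE, edgeR adjusted p = 3.42e-05), USP44 (1.05e-06) and VSNL1 (2.33e-05). For VRTN, with 3 and 1 mesoderm reads, the log2 fold change was -5.01 without mesoderm repeat 1. On 1 mesoderm read each, ectoderm was 173 times mesoderm for USP44 (95% interval 30.9 to 6869.6) and 86.2 times for VSNL1 (15.3 to 3425). LCK did not pass (edgeR adjusted p = 0.0975), and CNMD had a log2 fold change of -0.20 ± 0.94 (0.894).

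Between mesoderm and endoderm, 2 of the 5 were called, against 47.1% of all genes, both lower in mesoderm, as 23.2% of all genes were and 23.9% were higher. VRTN was lower in mesoderm, by -8.74 ± 0.49 on the log2 scale (SE, edgeR adjusted p = 3.62e-08), with endoderm at 306-fold the mesoderm level in CPM, and by -9.65 without mesoderm repeat 1. LCK was at least 1.86-fold lower in mesoderm (edgeR adjusted p = 0.00619), with 0 reads against 13. USP44 and VSNL1 did not pass (0.280 and 0.390), and CNMD, with 4 reads in mesoderm repeat 2 only, did not either (0.137).

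Of 12 SRC family kinases and regulators, 6 had enough reads to test, and in ectoderm 2 rose and 1 fell against hPSC (edgeR adjusted p under 0.05; 23.8% and 24.8% of all genes rose and fell). In endoderm 1 rose and 1 fell (13.4% and 13.7% of all genes), and in mesoderm 3 rose and none fell (17.0% and 18.2%). The median log2 fold changes were 0.66, -0.08 and 1.20, against -0.01, -0.13 and 0.01 over all genes tested. YES1, a widely expressed SRC family kinase, had 6 and 5 reads in hPSC and 150 and 149 in ectoderm, a rise of 3.34 ± 0.40 on the log2 scale (SE, edgeR adjusted p = 1.92e-05). FYN, which also acts in T cells and neurons, had 10 and 9 reads in hPSC, 96 and 69 in ectoderm (adjusted p = 0.00205), and 1 and 0 in endoderm (0.00473), a call lost without endoderm repeat 2.

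SRC itself had 13 and 1 reads in hPSC and 42 and 55 in mesoderm (edgeR adjusted p = 0.00141), and LYN had 23 and 4 against 36 and 38 (0.0446). The low counts of hPSC repeat 2 bear on these: without that library SRC stayed called in mesoderm and LYN did not. LYN also lost its call when any 1 layer library was left out, while SRC kept its own in each of those fits.

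Of 13 genes in the calcium sensor family of VSNL1, 9 had a read and 3 could be tested. In ectoderm 1 rose and 1 fell (23.8% and 24.8% of all genes did), in endoderm none rose and 1 fell (13.4% and 13.7%), and in mesoderm 2 rose and none fell (17.0% and 18.2%). Their median log2 fold changes were -1.52, -2.23 and 1.50, against -0.01, -0.13 and 0.01 over all genes. NCALD, a calcium sensor of neurons, had 5 and 10 reads in hPSC, 53 and 54 in ectoderm (edgeR adjusted p = 0.0129) and 41 and 43 in mesoderm (0.000752). HPCAL1, a close relative of VSNL1, had 17 and 2 reads in hPSC and 30 in each mesoderm library (0.0439), a call lost when hPSC repeat 2 or any 1 layer library was left out. The call of NCALD in ectoderm was lost without hPSC repeat 1 or ectoderm repeat 2, and that in mesoderm was kept without each library in turn. GUCA1A, known from photoreceptors, had 14 reads in each hPSC library, 5 and 6 in ectoderm (0.00176) and 0 and 5 in endoderm (0.0325), where the call was lost without either ectoderm or either mesoderm library or endoderm repeat 1. NCS1 and HPCA had at most 22 reads and 1 read in a library and were not tested.

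Of 8 genes with a BRICHOS domain, 4 could be tested. In ectoderm none rose and 2 fell (23.8% and 24.8% of all genes did), in endoderm 1 rose and none fell (13.4% and 13.7%), and in mesoderm 2 rose and 1 fell (17.0% and 18.2%). Their medians were -0.95, 0.13 and 0.99, against -0.01, -0.13 and 0.01 over all genes. ITM2A, a membrane protein, had 14 and 15 reads in hPSC and 5 and 3 in ectoderm, a fall of -3.20 ± 0.53 (SE, edgeR adjusted p = 0.00023), and it also fell in mesoderm (0.00736), a call lost without mesoderm repeat 2. ITM2C had 726 and 319 reads in hPSC and 1409 and 1018 in mesoderm (0.0303), and without hPSC repeat 2 neither ITM2C nor ITM2B was called in mesoderm. The call of ITM2C was also lost without endoderm repeat 1 or either mesoderm library. TNMD, the closest relative of CNMD, had no listed read.

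Of 14 genes of H2B ubiquitin and the mitotic checkpoint, 13 could be tested. In ectoderm 3 rose and 2 fell (23.8% and 24.8% of all genes did), in endoderm 3 rose and 2 fell (13.4% and 13.7%), and in mesoderm 3 rose and 3 fell (17.0% and 18.2%). The medians were 0.12, -0.21 and -0.39, against -0.01, -0.13 and 0.01 over all genes. BUB1B, a checkpoint kinase, had 79 and 70 reads in hPSC, 374 and 378 in ectoderm (edgeR adjusted p = 0.0136), only 6 and 4 with endoderm culture (1.34e-05) and 40 and 41 in mesoderm (0.0167). CDC20, the activator of the anaphase-promoting complex, had 279 and 511 reads in hPSC, 415 and 215 in ectoderm and 206 and 158 in mesoderm. It fell in both layers, with log2 fold changes of -1.80 (edgeR adjusted p = 0.00124) and -1.32 (0.0130). BUB3, which works with BUB1B, had 172 and 301 reads in hPSC and 89 and 60 in endoderm (0.00652). RNF40, a ligase that places ubiquitin on H2B, had 69 and 81 reads in hPSC and 169 and 176 in endoderm (0.00266). Among these, BUB1B lost its call in ectoderm without ectoderm repeat 2, BUB3 in endoderm without endoderm repeat 2, and BUB1B and CDC20 in mesoderm without either mesoderm library, CDC20 also without hPSC repeat 2. With a trend in transcript length removed CDC20 was not called in ectoderm or mesoderm, and with DESeq2 BUB1B was not called in mesoderm. BUB1B and RNF40 were singled out after their values were seen, as were ZAP70, the hPSC markers SOX2 and LIN28A, the neuron markers TUBB3, MAP2 and SYT1, and COL2A1 and COL9A1.

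USP49, the protease most like USP44, had 10 and 4 reads in hPSC and 56 and 47 in ectoderm, a rise of 1.46 ± 0.43 (SE, edgeR adjusted p = 0.0108) that was not called without hPSC repeat 2, with DESeq2, or with the length trend removed. USP22 had 128 to 329 reads in every library and did not pass in any layer against hPSC, but with the length trend removed USP22 and RNF40 were called lower in ectoderm, the group with the longest transcripts read. Without hPSC repeat 2 the counts of this list became 1 risen and 1 fallen in ectoderm, 3 and 4 for endoderm and 1 and 1 for mesoderm. Of the calls named in the other 3 lists, DESeq2 did not make those of FYN and GUCA1A in endoderm, NCALD in ectoderm, and LYN, HPCAL1, ITM2A and ITM2B in mesoderm. Those of LYN in mesoderm and ITM2C in ectoderm were lost with the length trend removed. When every transcript listed under a gene name was counted, LYN, HPCAL1 and ITM2B lost their mesoderm calls. All 35 calls named or counted over the 4 lists had the same sign on CPM scaled to library totals.

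**Figure D4:**
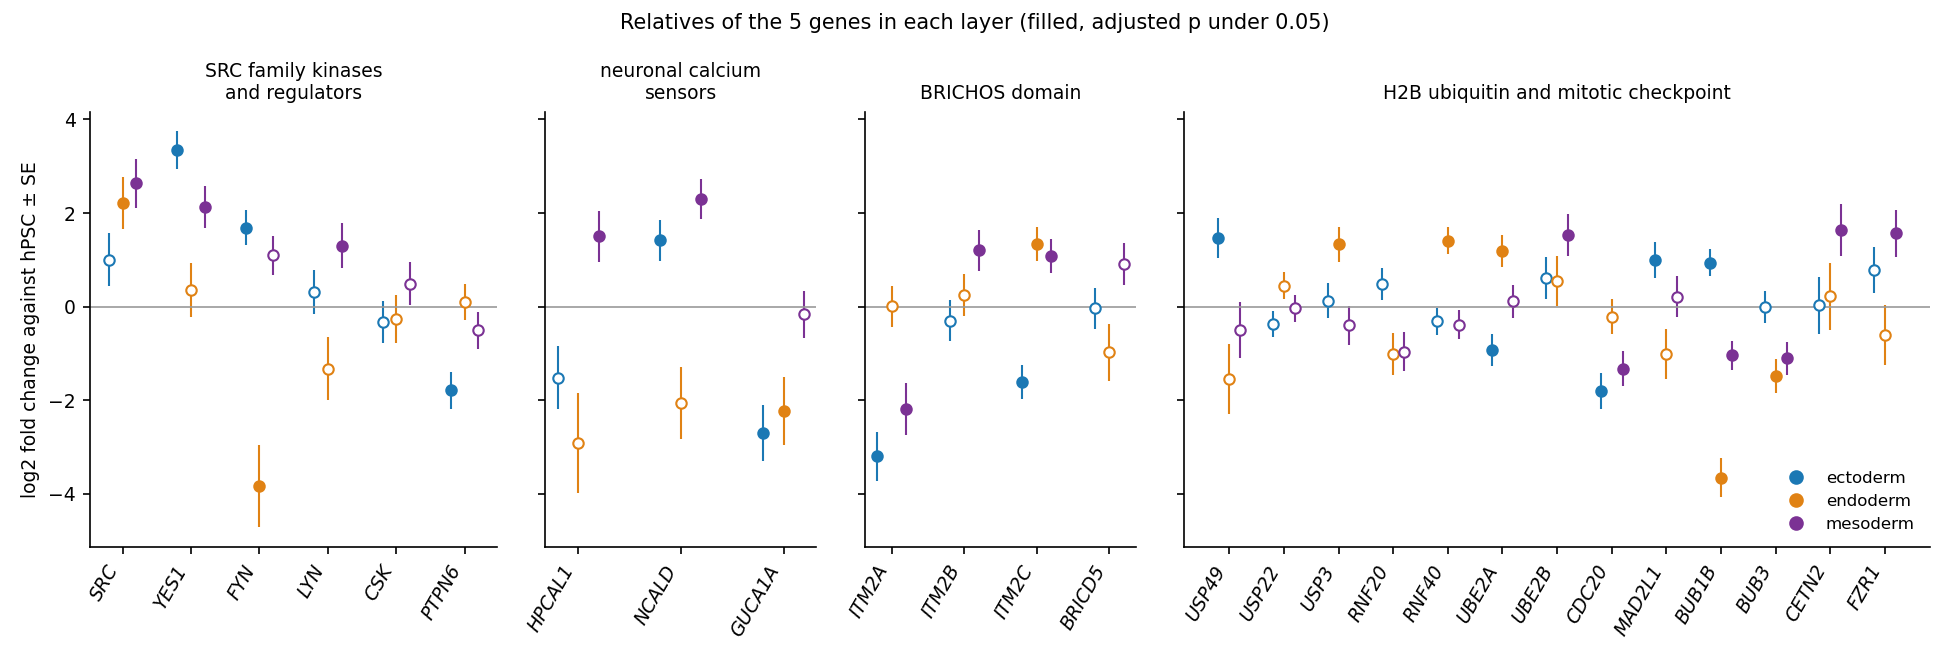
Log2 fold change against hPSC (vertical axis, with SE) of the genes of each related list that could be tested, in ectoderm, endoderm and mesoderm; filled points have an edgeR adjusted p under 0.05. YES1 rises in ectoderm and mesoderm and FYN falls in endoderm, and no list moves in 1 direction in all 3 layers.

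The genes whose pattern over the 8 libraries lay nearest to each gene were found by the root mean square difference of mean-centred log2 CPM. LCK lay nearest to LINC01013, a noncoding RNA, at 0.72, with 131 and 121 reads in hPSC and 0 to 4 elsewhere, then to PRDM14, a transcription factor of pluripotent and germ cells, and to the adenylyl cyclase ADCY2. CNMD lay nearest to the noncoding RNA CPMER, at 0.64, then to IDO1, which breaks down tryptophan, and the surface glycoprotein THY1. IDO1 had 23 and 22 reads in hPSC and 1 read in all layer libraries.

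VSNL1 and USP44 were each among the 3 genes nearest to the other, at 0.66. VSNL1 was closer still to TRIM22, at 0.49, a gene with 15 and 25 reads in hPSC, 77 and 48 in ectoderm and at most 1 elsewhere. NLGN3, a synaptic adhesion protein, was the third for USP44. Among the 3 nearest to VRTN were FOXH1, which works with SMAD proteins in NODAL signalling, and the creatine kinase CKB, both at 1.03. FOXH1 had 55 and 47 reads in hPSC, 5 in each ectoderm library, 86 and 103 in endoderm and 0 and 1 in mesoderm. The ranks of all 5 shifted with the prior count added before taking logs.

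**Figure D5:**
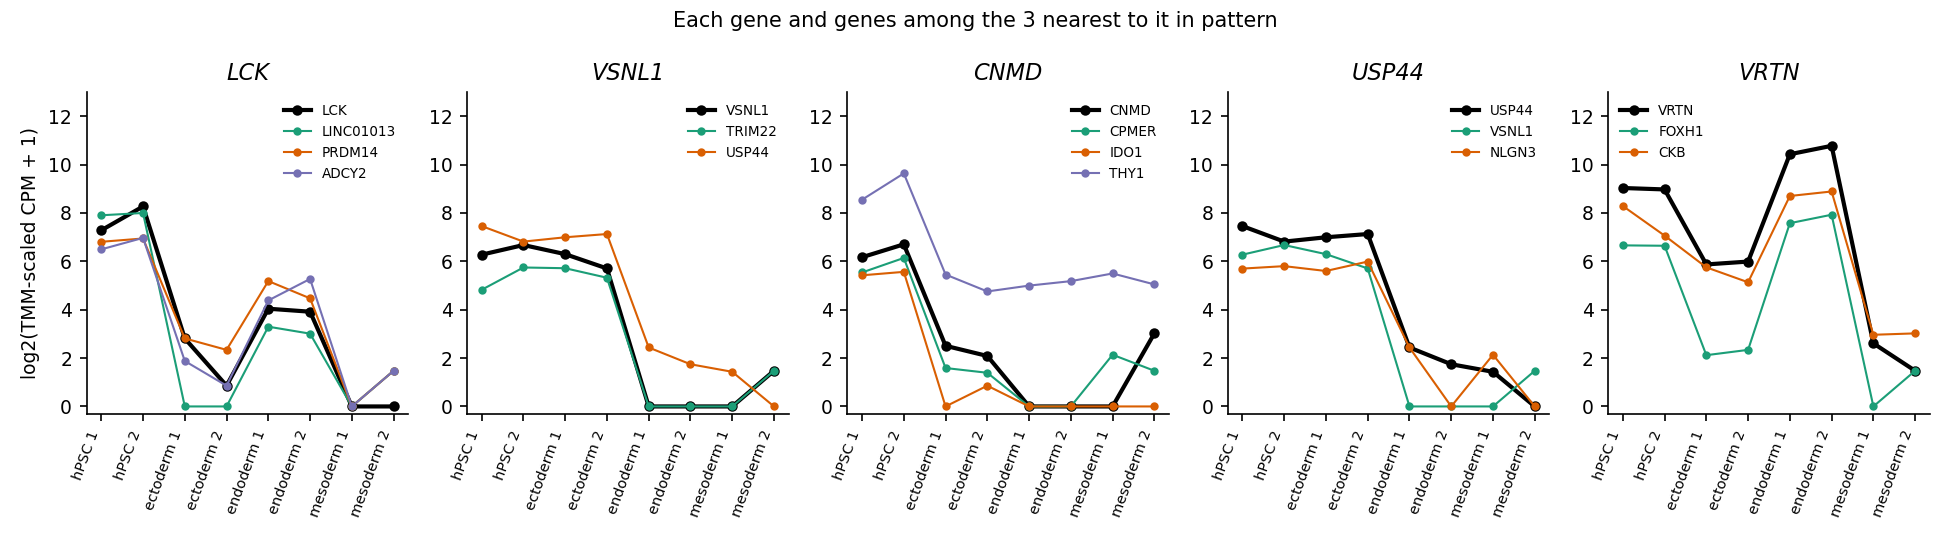
Level (log2 of TMM-scaled CPM + 1, vertical axis) of each of the 5 genes (black) and of the genes named in the text from the 3 nearest to it in pattern (colours) in the 8 libraries, in group order. TRIM22 runs beside VSNL1, and FOXH1 follows VRTN with its peak in endoderm and 1 read in mesoderm.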

How the data were processed

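Long reads of 8 libraries were analysed as the authors deposited them, in whole raw counts per assembled transcript. The 2 endoderm columns were entered under the unit expected counts, but the deposited values are whole like the others and nothing was rounded. Genome coordinates are positions in the deposited assemblies. The submitters' processing notes name minimap2, StringTie and GRCh38 (hg38), and versions and the counting of shared or antisense reads are not given in the sources used here. Samples were grouped by their titles. Counts were summed per gene over transcripts with a gene name and tested in edgeR 4.0.16 (R 4.3.3; TMM, filterByExpr at a minimum count of 10, quasi-likelihood over all 8 libraries, two-sided, Benjamini-Hochberg at 0.05). An exact permutation test of 2 against 2 could not go below 0.333. Folds are ratios of CPM means, with 3 counts per library as the floor and exact conditional intervals below 4 counts. Starts within 100 bases were joined. Coding sequences come from GENCODE 29. On simulated data with 4-fold changes in 200 of 10847 genes, 65.5% to 80.5% were recovered and 3.40% to 8.57% of calls were false. The genes, lists and tests were chosen with earlier results of these data known. Named genes are the 5, the 3 nearest to each, closest relatives, markers, and up to 3 called genes per list by mean CPM; some genes under this rule are not reported here. Alternatives were DESeq2 1.42.0, RLE factors, no filter, a replicate block, a length trend, each library left out, other assemblies and other joins. The authors' CPM tables were not used.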

Additional observations from a re-analysis of the deposited data

Results flagged for a closer look

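The effect of differentiation differed between layers, by the test of the difference itself, for 4 of the 5 genes over all layer comparisons together. Counts in the layers had helped to choose these genes, so the p-values are no independent support. Of all genes tested, 63.1% were called between endoderm and ectoderm, 35.5% between mesoderm and ectoderm and 47.1% between mesoderm and endoderm. The 4 genes were all called between endoderm and ectoderm, where the share of all genes was highest. The share of all genes called in any of these comparisons was not computed, so the count of 4 says little about these genes. The LCK call between endoderm and ectoderm was lost in some of the alternative fits. Between endoderm and ectoderm the edgeR adjusted p was 0.0348 for LCK, 1.16e-05 for VSNL1, 2.10e-06 for USP44 and 9.76e-08 for VRTN, with LCK and VRTN higher in both endoderm libraries and VSNL1 and USP44 higher in both ectoderm libraries. Between mesoderm and ectoderm it was 2.33e-05 for VSNL1, 1.05e-06 for USP44 and 3.42e-05 for VRTN, each higher in both ectoderm libraries. Between mesoderm and endoderm it was 0.00619 for LCK and 3.62e-08 for VRTN, each higher in both endoderm libraries. CNMD passed in none of these.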

How the results depend on the processing

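With 2 libraries a group and few reads, the depth limits CNMD, and LCK outside hPSC, most. The calls of VSNL1, USP44 and VRTN between layers held in all 14 alternatives, with edgeR or DESeq2. That of LCK between endoderm and ectoderm held in 10 of 14 (adjusted p from 0.00457 to 0.174), and that between mesoderm and endoderm in all 14 (6.58e-05 to 0.0394). LCK between mesoderm and ectoderm passed in 4 (0.0287 to 0.406). CNMD between endoderm and ectoderm passed in 6 (0.0192 to 0.202), and between mesoderm and endoderm in 1 (0.0447 to 1). The sign turned for VSNL1 between mesoderm and endoderm when intronic transcripts were counted (-0.65), and with a library left out it ran from 0.0 to 3.52. Leaving out a library, CNMD ran from -4.69 to 0.74 between mesoderm and ectoderm, with 0.022 without ectoderm repeat 1, and from 0.0 to 5.42 between mesoderm and endoderm. The USP44 choice ran from 0.00963 to 0.405, and its gap between groups from -27.8 to -27.2 percentage points.

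Library totals in place of TMM shift all log2 differences by 0.42 for ectoderm, -0.34 for endoderm and 0.23 for mesoderm against hPSC. DESeq2 called 3356, 1836 and 2315 genes for ectoderm, endoderm and mesoderm against hPSC, where edgeR called 5275, 2943 and 3815, and 2015 against 3846 between mesoderm and ectoderm. With a library left out these ran from 3290 to 5938, 1450 to 4072, 2006 to 5087 and 1775 to 5640, and between mesoderm and endoderm from 3382 to 6484, where all libraries gave 5107. The cause was not tested. Of the 3 nearest genes, a prior count of 5 kept 1 for LCK, a prior of 0.5 kept 0 for CNMD and 1 for VRTN, and distance without centring kept 1 for CNMD, 0 for USP44 and 1 for VRTN.

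The repeats share only a number: same-numbered libraries had deviations correlated at -0.034 to 0.151. A replicate block gave 5108, 2799 and 3613 called genes against hPSC and changed none of the calls of the 5 genes between layers.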

Other observations

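The count table lists 5 single-exon transcripts inside introns of VSNL1 and 1 transcript antisense to VRTN under these names, without a gene name in the assembly. With them VSNL1 had 55 reads in each hPSC library, 141 and 92 in ectoderm libraries, 3 in each endoderm library and 1 and 4 in mesoderm. The antisense transcript of VRTN, of 4 exons, had 1 and 0 hPSC reads, with 3 and 1 in the ectoderm libraries, 1 and 3 in those of endoderm and none in mesoderm.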
